A study of Mus musculus with 6 samples.

Results

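Complement genes were examined by bulk RNA-seq in CD11b+ cells purified from subcutaneous TC1 tumors. The group held 9 genes of the 25701 in the count table, taken by symbol: the C1q subunits *C1qa*, *C1qb* and *C1qc*, the protease-like gene *C1rl*, the central component *C3*, the alternative pathway genes *Cfp* and *Cfb*, and the anaphylatoxin receptors *C3ar1* and *C5ar1*. They were chosen by function with the counts and log2 fold changes of MCT2 KO against MCT2 CO already in view, so their differences between the groups are given as a description and carry no independent evidence. All samples came from mice of a C57BL/6 line with loxP sites in both alleles of MCT2 (*Slc16a7*) crossed to mCre-Tg mice. MCT2 KO mice (n = 3 samples) received tamoxifen once daily for 5 days from 8 weeks of age, at 180 µg per g body weight, and MCT2 CO mice (n = 3 samples) received vehicle. TC1 cells, a mouse lung epithelial tumor line, were injected into the flank 2 days later, and tumors were taken after 24 days. The injected cells keep their own MCT2, the promoter that drives Cre is not given in the sources used here, and the effect of tamoxifen itself cannot be told apart from that of the deletion in this design.

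Complement is a cascade of plasma proteins that marks particles and cells for uptake, recruits leukocytes and can lyse membranes. The classical pathway starts when C1q, a bouquet of A, B and C chains carrying the proteases C1r and C1s, binds antibody or other ligands, whereas the alternative pathway is amplified by factor B and stabilized by properdin. The pathways meet at C3, whose fragments coat targets or, with the C5 fragment, act on the receptors C3aR and C5aR1. Most complement proteins in blood come from the liver, but C1q is made chiefly by macrophages and related myeloid cells, and properdin by myeloid cells.

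Total counts were between 24863611 and 31713704 per sample, and edgeR's filter on low counts kept 13485 genes, including 8 of the 9 complement genes. Levels are given as CPM, counts scaled to library size after TMM, edgeR's correction for library composition. The targeted gene *Slc16a7* averaged 12.8 ± 2.84 CPM in vehicle-treated and 6.18 ± 1.78 CPM in tamoxifen-treated mice (SD, n = 3 each), and every MCT2 KO sample lay below every MCT2 CO sample. The labels call the cells purified macrophages. Of 9 macrophage markers, 8 passed the filter, among them *Adgre1* (F4/80), *Csf1r* and *Cd68*. Passing the filter does not set macrophages apart, because all 9 fibroblast markers examined passed it too. Summed over each list, macrophage markers had 4560 to 9890 CPM per sample and fibroblast markers 1730 to 3430 CPM. The share of other cells in these preparations was not tested. *Itgam*, which encodes CD11b itself, had 1 count in all samples together, and 99.1% of its exons lie inside the span of *Gm49368*. The labels also give the tissue as lung, whereas the methods describe flank tumors. In bulk RNA from such preparations, fewer cells of a type and less RNA per cell cannot be told apart.

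The genes of the C1q chains lie side by side on chromosome 4 of GRCm38 (minus strand), *C1qb* from 136880129 to 136886187, *C1qc* from 136889804 to 136893065 and *C1qa* from 136895917 to 136898803. Only 3616 and 2851 bases separate them. *C1rl* occupies chromosome 6 from 124493113 to 124510643 on the plus strand, 1761 bases before *C1ra*. To show the start regions of genes that ran together over the samples and of the gene with the largest log2 fold change of the 8, the RefSeq promoter windows of GRCm38.p6, 250 bases before and 50 after the start site, are printed for *C1qb* (chr4:136886151-136886450, minus strand), *C1qc* (chr4:136892865-136893164, minus strand) and *C1rl* (chr6:124492863-124493162, plus strand). Capitals mark a match on either strand to GAGGAAG, a core of the sites bound by the myeloid factor PU.1, or to TGCTGA, the core recognized by MAF factors.
C1qb: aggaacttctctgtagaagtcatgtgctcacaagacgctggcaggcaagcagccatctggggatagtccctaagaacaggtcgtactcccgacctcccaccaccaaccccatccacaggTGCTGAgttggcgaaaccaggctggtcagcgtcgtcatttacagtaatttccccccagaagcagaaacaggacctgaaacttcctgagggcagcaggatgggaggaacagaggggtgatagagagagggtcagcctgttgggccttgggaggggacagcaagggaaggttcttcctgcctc
C1qc: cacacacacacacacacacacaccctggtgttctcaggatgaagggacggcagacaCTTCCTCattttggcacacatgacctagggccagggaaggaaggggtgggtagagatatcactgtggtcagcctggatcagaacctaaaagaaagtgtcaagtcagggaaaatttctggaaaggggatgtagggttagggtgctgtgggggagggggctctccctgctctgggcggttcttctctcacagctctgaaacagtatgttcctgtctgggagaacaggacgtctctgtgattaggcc
C1rl: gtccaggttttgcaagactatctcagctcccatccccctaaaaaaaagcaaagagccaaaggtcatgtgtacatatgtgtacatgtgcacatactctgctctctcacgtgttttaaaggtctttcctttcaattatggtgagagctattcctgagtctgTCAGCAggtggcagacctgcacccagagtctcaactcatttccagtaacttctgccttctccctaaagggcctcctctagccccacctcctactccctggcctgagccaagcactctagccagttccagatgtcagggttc

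RefSeq windows were found for 7 of the 9 genes, all but *C1qa* and *Cfb*. TGCTGA was present in 5 of the 7, in *C1qb* at -131 from the start site, in *C1rl* at -91 and also in *C3*, *C3ar1* and *C5ar1*, against 19.5% of all 32851 windows. GAGGAAG occurred in *C1qc* alone, at -194 on the opposite strand, against 13.6% of all windows. The AP-1 site TGACTCA stood at -22 of *C3ar1* and in 5.2% of all windows, and an interferon-stimulated response element, read as GAAA, NN and GAAA in a row, was in none of the 7 and in 3.44% of all. Both strands were searched, and none of these motifs overlapped another in the 7 windows. A match is a run of letters and says nothing of binding.

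The C1q genes gave the highest levels of the group. Per kilobase of exonic length, averaged over the 6 samples, *C1qa* had a level of 1231 CPM per kb, *C1qb* 1106 and *C1qc* 563. The next gene in this order was *Cfp* at 85.8 CPM per kb, then *C3* at 63.3, *C3ar1* at 39.7, *C5ar1* at 30.5 and *C1rl* at 2.41. Every *C1qc* sample, the lowest at 401 CPM per kb, lay above every *Cfp* sample, the highest at 109. Likewise every *C5ar1* sample, from 23.8 to 39.3 CPM per kb, exceeded every *C1rl* sample, from 1.56 to 3.34. Between the other neighbours in the order the ranges over samples overlapped, although *C1qa* was above *C1qb* and *C1qb* above *C1qc* within each of the 6 samples. By mean CPM, which is not corrected for length, the C1q genes ranked 44, 49 and 63 among the 13485 genes, and *C1rl* ranked 10057. This order depends on the length used, and when counts were divided by the whole gene span, 4 of the 8 genes kept their place.

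**Figure D1:**
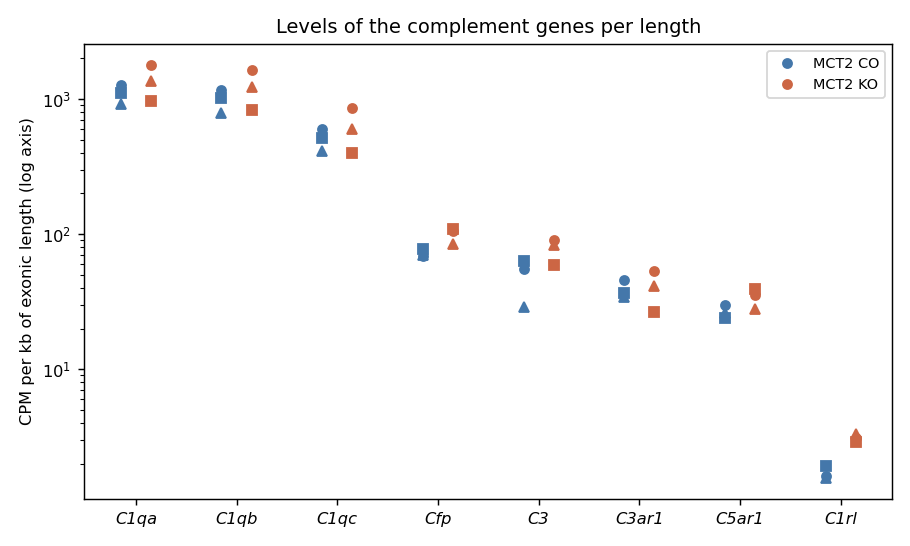
Level of each of the 8 complement genes kept by the filter, as CPM per kilobase of exonic length on a log axis, with 1 point per sample (circle, square and triangle for replicates 1, 2 and 3). The C1q genes lie above 400 CPM per kb in every sample and *C1rl* below 4.

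*C1qa*, chain A of C1q, was covered by 39764, 29751 and 25214 counts in the MCT2 CO samples, in replicate order here and throughout, and by 44432, 32407 and 34966 counts in the MCT2 KO samples. This came to 1326, 1144 and 949 CPM in MCT2 CO and 1863, 995 and 1405 CPM in MCT2 KO. MCT2 KO replicate 1 was the highest sample and MCT2 CO replicate 3 the lowest, while MCT2 KO replicate 2 lay below the first and second MCT2 CO samples, so the groups overlapped. *C1qb* followed the same course, with 1257, 1098 and 862 CPM in MCT2 CO and 1767, 908 and 1326 CPM in MCT2 KO. *C1qc* had 1160, 984 and 792 CPM in MCT2 CO and 1660, 774 and 1149 CPM in MCT2 KO, and here MCT2 KO replicate 2 was the lowest of all samples. The log2 fold changes of MCT2 KO over MCT2 CO were 0.32 (standard error 0.23) for *C1qa*, 0.31 (0.24) for *C1qb* and 0.29 (0.27) for *C1qc*. These differences are close to their standard errors and moved with single samples. They were 0.082, 0.066 and -0.017 without MCT2 KO replicate 1, 0.20, 0.18 and 0.16 without MCT2 CO replicate 3, and 0.52, 0.53 and 0.52 without MCT2 KO replicate 2.

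The proportions of the C1q chains were also compared, a ratio that does not depend on library size. Of the reads assigned to the C1q genes, *C1qa* held between 35.2% and 37.2% in the 6 samples, *C1qb* between 33.1% and 34.2% and *C1qc* between 28.9% and 31.4%. The mean share of *C1qa* was 35.8% ± 0.582 in MCT2 CO and 36.2% ± 0.974 in MCT2 KO, and that of *C1qc* was 30.6% ± 0.304 and 30.0% ± 1.27 (SD, n = 3 each). The shares overlapped between the groups for each chain, with two-sided exact permutation p of 0.7 for *C1qa*, 0.6 for *C1qb* and 0.5 for *C1qc*. With 3 samples against 3 the smallest p possible is 0.1, so these tests could not have found a difference. Over the same samples the summed C1q level ranged from 2602 to 5290 CPM, a ratio of 2.03, and C1q reads made up between 0.265% and 0.507% of all counts.

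Likeness between genes was measured as the root mean square difference of log2 CPM over the 6 samples, after each gene was centred on its own mean. The gene nearest to *C1qa* among all genes kept was *C1qb*, at a difference of 0.0298, and *C1qc* was the seventh nearest, at 0.0651. The receptor gene *C3ar1* ranked 275 from *C1qa*, at 0.154, whereas *C3* ranked 5353, *Cfp* 6070, *C5ar1* 6498 and *C1rl* 8582. *C3ar1* thus stood near the C1q profile by this measure, and the other complement genes stood far down the ranking. The measure also counts how widely a gene ranges. Like *C1qa*, *C3* was highest in MCT2 KO replicate 1 and lowest in MCT2 CO replicate 3. Outside the group, the genes nearest to the mean C1q profile were *Cxcl16* (0.0592), *Adgre1* (0.0617) and *Daglb* (0.0668). These are descriptions over 6 points, in which genes of a sample share a library and its mix of cells.

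**Figure D2:**
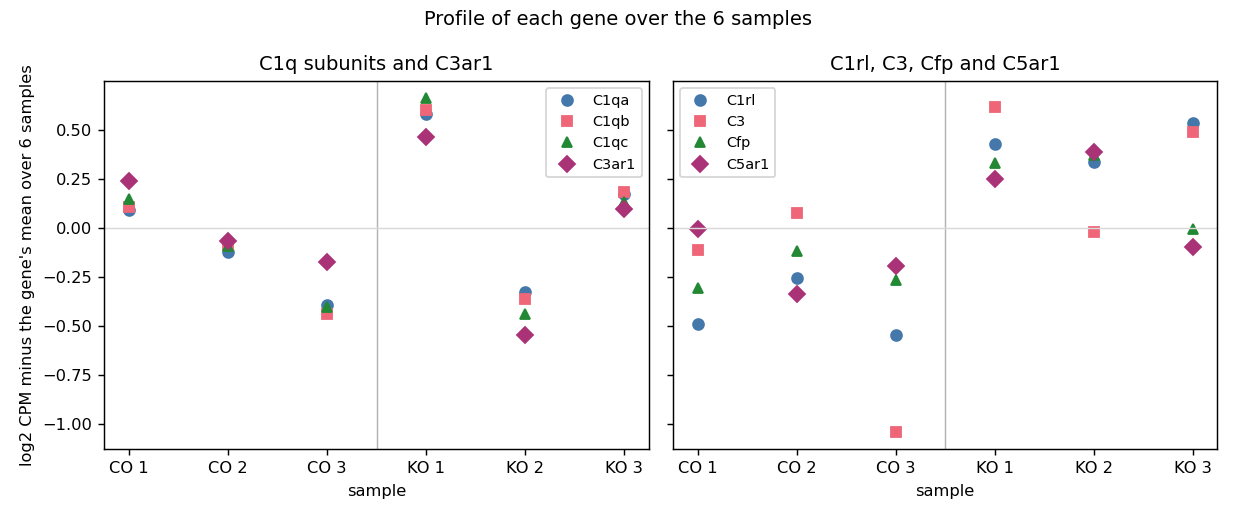
Log2 CPM of each gene minus its own mean over the 6 samples, with *C1qa*, *C1qb*, *C1qc* and *C3ar1* on the left and *C1rl*, *C3*, *Cfp* and *C5ar1* on the right. The genes on the left peak together in MCT2 KO replicate 1 and are low in MCT2 KO replicate 2, where *Cfp*, *C5ar1* and *C1rl* are above their means.

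*Adgre1*, the gene of the macrophage surface marker F4/80, had 393, 344 and 280 CPM in MCT2 CO and 538, 253 and 406 CPM in MCT2 KO. Because it is among the genes nearest to C1q, a steady ratio of C1q to it follows from that choice. The summed C1q level per CPM of *Adgre1* was 9.53, 9.38 and 9.28 in MCT2 CO and 9.84, 10.6 and 9.57 in MCT2 KO. Set against each of the 8 macrophage markers that passed the filter, a comparison added after the values were seen, C1q was higher in every MCT2 KO sample for *Adgre1* alone and overlapped for the other 7. Against *Csf1r*, the receptor of the macrophage growth factor CSF1, the ratio was 3.82, 3.38 and 2.97 in MCT2 CO and 3.76, 3.17 and 4.34 in MCT2 KO. The ratio of *C3ar1* was lower in every MCT2 KO sample against *Adgre1* and *Cd68* and overlapped against the other 6 markers. Over the whole macrophage list, 8 of 8 markers that passed the filter had a log2 fold change above 0, with a median of 0.17. Their summed level ran from 4860 to 7410 CPM in MCT2 CO and from 4560 to 9890 CPM in MCT2 KO. *Apoe* alone gave most of this sum in every sample, from 2300 CPM in MCT2 KO replicate 2 to 6370 CPM in MCT2 KO replicate 1. MCT2 KO replicate 1 was also the highest sample in this sum, and the part of macrophage content in the C1q differences was not tested.

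*C1rl* encodes a protein related to the C1r protease, and of the 8 genes kept it had the largest log2 fold change. It had 147, 150 and 125 counts in MCT2 CO and 222, 285 and 250 counts in MCT2 KO, which came to 4.90, 5.77 and 4.70 CPM against 9.31, 8.75 and 10.04 CPM. Every MCT2 KO sample lay above every MCT2 CO sample, and the spread within the groups was small (SD 0.566 and 0.649 CPM, n = 3 each). The log2 fold change was 0.87 (standard error 0.14), a fold of 1.83, and it stayed between 0.81 and 0.96 with each sample left out in turn. The adjusted p from edgeR's model across the 13485 genes was 0.370, and the adjusted p from DESeq2, run on every gene with a count, was 0.00126.

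The genes of the proteases that C1q itself carries lay differently over the samples. *C1ra*, the gene of C1r itself and the neighbour of *C1rl*, had 598, 677 and 677 counts in MCT2 CO and 512, 850 and 624 counts in MCT2 KO, or 19.9, 26.0 and 25.5 CPM against 21.5, 26.1 and 25.1. Its log2 fold change was 0.025 (standard error 0.13), and the groups overlapped. Reads of *C1rl* came to 24.6%, 22.2% and 18.5% of those of *C1ra* in MCT2 CO and to 43.4%, 33.5% and 40.1% in MCT2 KO, a ratio that does not depend on library size. *C1s1*, which encodes C1s, had 21.8, 25.8 and 31.0 CPM in MCT2 CO and 19.1, 18.1 and 24.2 CPM in MCT2 KO. Its log2 fold change was -0.36 (standard error 0.16), at an adjusted p of 0.547 in edgeR, and -0.22 without MCT2 CO replicate 3. The paralogs *C1rb* and *C1s2* had 1 and 6 counts in all samples together, against 3938 for *C1ra* and 3797 for *C1s1*. *C1s1*, *C1rb* and *C1s2* were added after their values were seen.

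**Figure D3:**
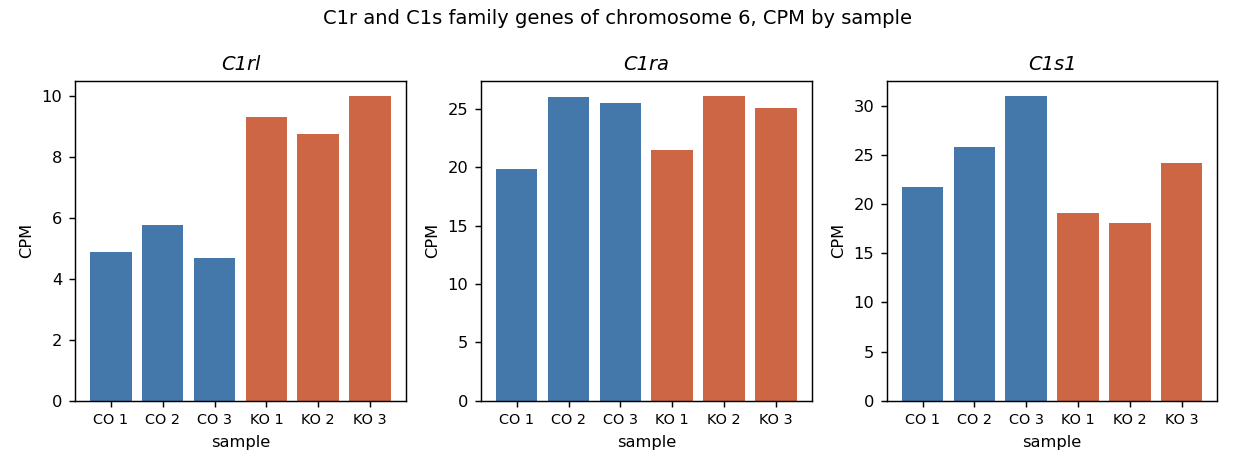
CPM of *C1rl*, *C1ra* and *C1s1* in each of the 6 samples, 1 bar per sample, with MCT2 CO in blue and MCT2 KO in orange. *C1rl* runs from 4.70 to 5.77 CPM in MCT2 CO and from 8.75 to 10.04 in MCT2 KO, while the bars of *C1ra* and *C1s1* overlap between the groups.

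*C3*, on chromosome 17 from 57203970 to 57228136, encodes the component at which all pathways meet. Its levels were 282, 322 and 149 CPM in MCT2 CO and 468, 302 and 430 CPM in MCT2 KO. MCT2 CO replicate 3 stood well below the other samples, and MCT2 KO replicate 2 lay within the MCT2 CO range, so the groups overlapped. The log2 fold change was 0.67 (standard error 0.28), and without MCT2 CO replicate 3 it was 0.40. Its highest sample had 3.15 times the level of its lowest, the widest range of the 8 genes.

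*Cfp* encodes properdin, which stabilizes the C3 convertase of the alternative pathway, and lies on chromosome X from 20925454 to 20931555. It had 118, 135 and 122 CPM in MCT2 CO and 184, 189 and 146 CPM in MCT2 KO, and every MCT2 KO sample exceeded every MCT2 CO sample. The log2 fold change was 0.47 (standard error 0.12), below the fold threshold of 0.58, and the adjusted p in DESeq2 was 0.0513. *Cfb*, the gene of factor B, had 4, 3 and 2 counts in MCT2 CO and 4, 1 and 1 counts in MCT2 KO and did not pass the filter. Of its exons, which lie on chromosome 17 between 34856374 and 34862518, 98.7% fall inside the span of *Gm20547*, a gene listed across *Cfb* and *C2* that itself had 13 counts. Among protein-coding genes with at least 95% of their exons inside other spans, 86.8% of 1185 had 15 counts or fewer, as *Cfb* did, against 33.2% of 17151 genes with no such overlap. No level of *Cfb* is read from these counts, and the part of the overlap in them was not tested. *C2*, which supplies the protease of the classical convertase, has 95.8% of its exons inside other spans and had 264 counts.

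*C3ar1* encodes the receptor of C3a, and it lies on chromosome 6 from 122847138 to 122856161. Its levels were 197, 159 and 147 CPM in MCT2 CO and 230, 114 and 178 CPM in MCT2 KO, with the highest and the lowest sample both in MCT2 KO. On the log2 scale the groups differed by 0.052 (standard error 0.23), and its sign changed when MCT2 KO replicate 1 (-0.19) or MCT2 CO replicate 3 (-0.033) was left out. *C5ar1*, the receptor of C5a, on chromosome 7 from 16246743 to 16259540, had 76.8, 61.1 and 67.3 CPM in MCT2 CO and 91.8, 101 and 72.1 CPM in MCT2 KO. Only MCT2 KO replicate 3 lay below the highest MCT2 CO sample, and the log2 fold change was 0.37 (standard error 0.14). The receptors thus parted in MCT2 KO replicate 2, which was the lowest of the 6 samples in *C3ar1* and the highest in *C5ar1*.

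**Figure D4:**
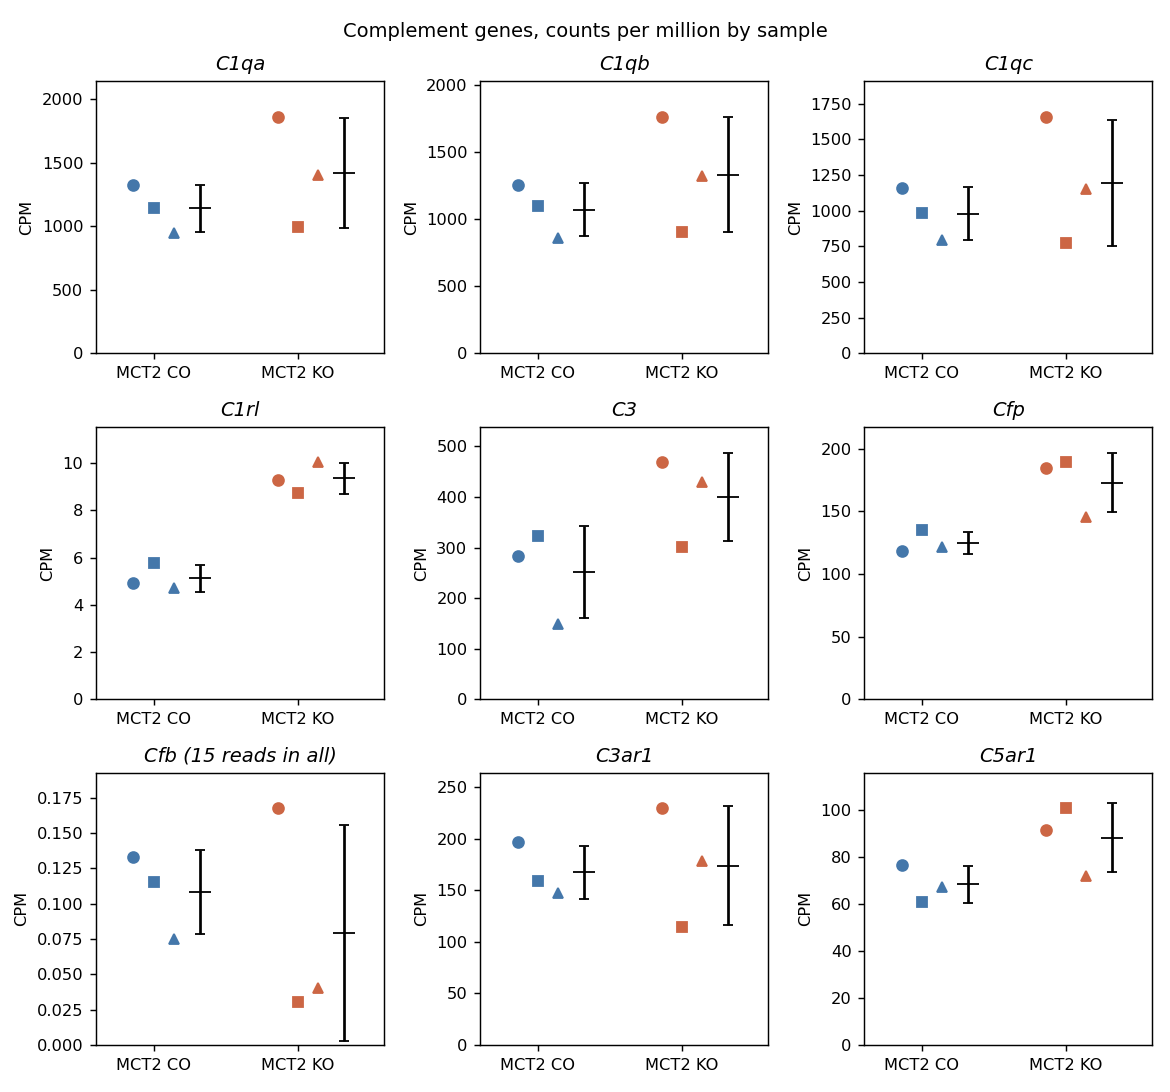
CPM of the 9 complement genes in each sample, in 1 panel per gene with its own axis from 0. Circles, squares and triangles are replicates 1, 2 and 3 of MCT2 CO (blue) and MCT2 KO (orange), and black bars give the mean and SD. The groups separate in *C1rl* and *Cfp* and overlap in the other genes, and *Cfb* rests on 15 counts in all.

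*C5ar1* and *Cfp* are also known from neutrophils, and *C3* and *C1s1* from fibroblasts. Of 10 neutrophil markers, 8 passed the filter and 7 of these had a log2 fold change above 0, with a median of 1.70. Their summed level was 109 to 124 CPM in MCT2 CO and 110 to 204 CPM in MCT2 KO, highest in MCT2 KO replicate 1. The defining marker *Ly6g* had 8 counts in all samples together. *Csf3r* and *Mmp9* made up most of this sum and overlapped between the groups, as did *Cxcr2*. *S100a8*, *S100a9*, *Retnlg*, *Ltf*, *Camp* and *Ngp* were higher in every MCT2 KO sample. *S100a9*, the best counted of these, had 3.50, 2.58 and 4.18 CPM in MCT2 CO and 20.9, 9.12 and 7.63 CPM in MCT2 KO. These markers are named after their values were seen. Of 9 fibroblast markers, 8 had a log2 fold change below 0, with a median of -0.62. Their sum was 2080 to 3430 CPM in MCT2 CO, highest in replicate 3, and 1730 to 1850 CPM in MCT2 KO, without overlap. *Col3a1* gave the largest part of it, with 1190, 1250 and 2030 CPM in MCT2 CO and 1020, 805 and 821 CPM in MCT2 KO. *Dcn* and *Lum* were also lower in every MCT2 KO sample, and in *Pdgfrb* the groups met at 29.8 CPM. *Col1a1*, *Col1a2*, *Pdgfra*, *Postn* and *Fap* overlapped between the groups. These fibroblast genes are likewise named after their values were seen. MCT2 KO replicate 2, in which the complement genes parted, was the lowest sample in the summed markers of T cells (9.09 CPM against 33.0 to 68.4 in the others), B cells (8.13 against 20.3 to 24.6) and dendritic cells (26.7 against 43.9 to 63.6). It was also the lowest in those of macrophages (4560 CPM) and endothelial cells (83.5 CPM), but not in those of monocytes, neutrophils, NK cells or fibroblasts. The part of these cell types in the values of the complement genes was not tested.

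The 8 genes kept all had a log2 fold change above 0, with a median of 0.34, beside a median of 0.00037 and 50.1% of genes above 0 over all 13485 genes tested. A gene was called where its adjusted p was 0.05 or lower and its log2 fold change 0.58 or more in either direction. By edgeR this held for 0 of the 8 and for 0% of all genes, so the targeted gene *Slc16a7* (adjusted p 0.370) was not called either. At an unadjusted p under 0.05 there were 4 (*C1rl*, *Cfp*, *C5ar1* and *C3*), all higher in MCT2 KO, where 3.77% of all genes were higher and 5.6% lower at that level. By size alone, *C1rl* and *C3* reached a log2 fold change of 0.58, as 1.96% of all genes did, and 0 of the 8 reached -0.58, as 3.88% did. The adjusted p values of the 8 genes in edgeR ranged from 0.370 to 0.958. DESeq2 called *C1rl* alone of the 9, and of the 18508 genes it tested it called 0.448%, with 0.178% higher in MCT2 KO. On the genes kept by the filter it again called *C1rl* alone, and 0.586% of all. The samples separated with MCT2 KO above in *C1rl* and *Cfp*, 2 of the 8 genes, and in 7.07% of all genes. Because the genes were named with this comparison known, nothing is read from these shares. With a sample left out, all 8 remained above 0 in 4 of the 6 fits, and 7 and 6 genes remained above 0 without MCT2 CO replicate 3 and MCT2 KO replicate 1.

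A wider list of 48 complement genes, set by role, held the rest of the pathway. The table had 47 of them, all but *C4a*, and 26 passed the filter, 16 with a log2 fold change above 0 and 10 below, with a median of 0.13. None was called by edgeR, where the smallest adjusted p was 0.491, or by DESeq2, and 1 had an unadjusted p under 0.05, where 9.37% of all genes did. That gene, *Cd55*, was named after its values were seen and encodes a membrane protein that dissociates C3 convertases. Its levels were 0.801, 1.62 and 1.66 CPM in MCT2 CO and 1.85, 4.94 and 2.29 CPM in MCT2 KO, with a log2 fold change of 1.18 (standard error 0.44), or 0.62 without MCT2 KO replicate 2. With each sample left out in turn, 12 of the 26 genes changed sign at least once and 23 moved by over 1.5 times. Every MCT2 KO sample was above every MCT2 CO sample in 3 of the 26 genes, against 7.07% of all genes, and below in 0, against 8.77%.

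Among the classical and lectin pathway genes, 4 of 7 kept had a log2 fold change above 0. *C4b*, which supplies the C4 part of the classical convertase, averaged 26.5 ± 7.64 CPM in MCT2 CO and 30.4 ± 14.01 CPM in MCT2 KO (SD over 3 samples), and its reads may be shared with the near copy *C4a*. *Masp1*, a protease of the lectin pathway, had 26.3 ± 6.29 and 28.7 ± 12.4 CPM, and *Colec12*, a scavenger receptor of the collectin family, 140 ± 16.9 and 132 ± 16.9. The groups overlapped in all 7. The lectins *Mbl1* and *Mbl2* were at 0 counts in all samples, as were *C8b*, *C4bp* and *Cd55b*. Of the 7 terminal genes, 3 were kept, *Hc*, the gene of C5, *C6* and *C8g*, with *C6* the highest at 0.951 ± 0.483 and 1.31 ± 0.250 CPM. *Cfd*, the factor D gene of the alternative pathway, averaged 0.640 ± 0.394 CPM in MCT2 CO and 0.428 ± 0.614 CPM in MCT2 KO.

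Among the fluid-phase regulators, *Clu*, clusterin, averaged 199.9 ± 48.4 CPM in MCT2 CO and 192 ± 7.92 CPM in MCT2 KO, with a log2 fold change of -0.058 (standard error 0.17). *Serping1*, the gene of the C1 inhibitor, averaged 8.51 ± 2.55 and 5.88 ± 1.83 CPM, a difference of -0.53 on the log2 scale (standard error 0.28) that was -0.28 without MCT2 CO replicate 3. The groups overlapped in both. The membrane regulators kept, 4 in number, had log2 fold changes above 0, the best counted being *Cr1l* (Crry) at 48.8 ± 4.65 and 51.1 ± 5.86 CPM.

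Of the complement receptors and C1q-binding proteins, 6 of 8 kept had a log2 fold change above 0. *Itgb2* and *Itgax*, the chains of complement receptor 4, had 293 ± 48.0 and 515 ± 195 CPM in MCT2 CO and 408 ± 111 and 694 ± 240 CPM in MCT2 KO. Their log2 fold changes were 0.48 (standard error 0.21) and 0.43 (0.33), and the groups overlapped in both. That of *Itgax* was 0.16 without MCT2 CO replicate 3 and 0.70 without MCT2 CO replicate 1. *Lrp1*, an endocytic receptor that binds calreticulin, had 983, 1090 and 1126 CPM in MCT2 CO and 1220, 1195 and 1187 CPM in MCT2 KO, and the groups did not overlap. Its log2 fold change was 0.17 (standard error 0.098). *Calr*, calreticulin, differed by -0.012 (standard error 0.095), *Cd93* by 0.16 (0.11) and *C1qbp* by 0.16 (0.13) on the log2 scale. *Vsig4*, a receptor of resident macrophages for C3b, had 21 counts over all samples and did not pass the filter. The terminal genes, *Cfd*, *Serping1* and *Vsig4* are named after their values were seen.

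**Figure D5:**
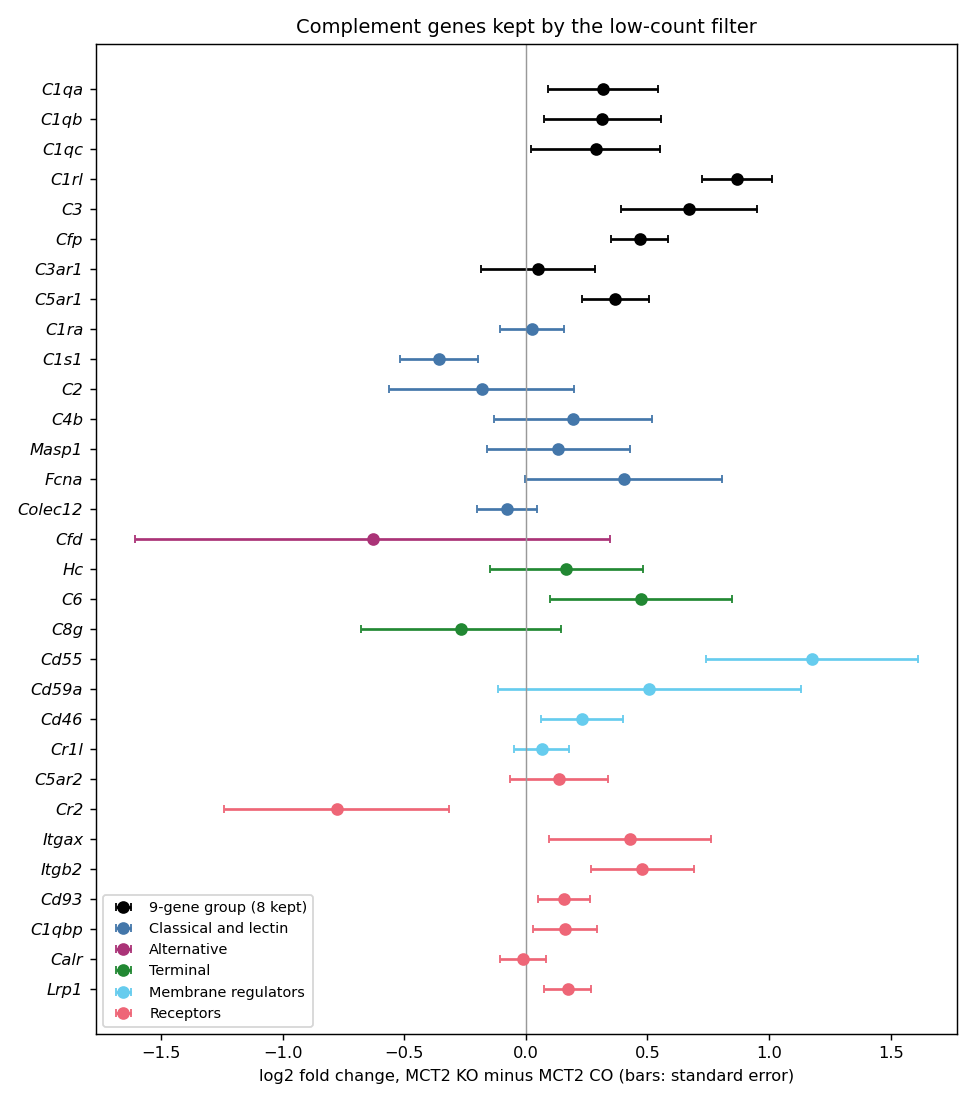
Log2 fold change of MCT2 KO over MCT2 CO with its standard error for the 8 complement genes kept and for the kept genes of the wider list other than fluid-phase regulators, colored by role. All 8 lie above 0, with *C1rl* at 0.87 and *C3ar1* at 0.052, whereas the genes of the wider list lie on both sides of 0.

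Apart from C1q, the profile of each complement gene had other nearest neighbours. *C1rl* lay nearest to *Tspoap1* (root mean square difference 0.101), *Ifitm1* (0.113) and *Catsperg1* (0.138), and *C3* to *Cst7* (0.107), *Lag3* (0.141) and *Il7r* (0.177). For *Cfp* they were *Bphl* (0.0681), *Abhd18* (0.0763) and *Parvg* (0.0815). The nearest to *C3ar1* were *A930011G23Rik* (0.0529), *Tbc1d30* (0.0687) and *Gstk1* (0.0719), and to *C5ar1* they were *Poc1b* (0.0308), *Cd300lb* (0.0597) and *Hgsnat* (0.073). No gene was shared between these lists.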

How the data were processed

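Poly-A RNA of CD11b+ cells from MCT2 CO and MCT2 KO tumors was sequenced with a stranded kit, with 3 samples per group. According to the methods and the submitters' processing notes, the authors screened reads with FastQC v0.12.0 and MultiQC v1.28, aligned them to GRCm38 with STAR v2.7.11b and counted reads with featureCounts v2.1.1. The deposited values are raw counts per gene. Annotation, feature type and strand setting are not given in the sources used here. The length column of the deposited table equals the whole gene span. The positions in the table match GENCODE M21 for 2.4% of 25645 shared identifiers, so positions, exonic lengths and overlaps were taken from GENCODE M21 on GRCm38 by identifier. Groups and replicate numbers came from the sample titles.

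Counts were analysed with edgeR v4.0.16 in R v4.3.3 (filterByExpr, minimum count 10 and minimum total 15; TMM; quasi-likelihood test without covariates; Benjamini–Hochberg adjustment over 13485 genes), with DESeq2 v1.42.0 as an alternative. Log2 CPM used a prior count of 2. The titles number the replicates without stating that each is a separate mouse, so p-values measure the spread between these samples, which may be technical. Between samples of a group the counts differed by more than counting error, with a chi-square per degree of freedom of 15.7 to 79.2. The source of this spread was not tested. Counting error weighs most on genes with few counts, and *C1rl* had 125 to 285 counts per sample. Its part in the small spread of *C1rl* within the groups was not tested. In counts simulated from the means and dispersions of these samples, edgeR called 96% of the genes given a 2-fold change. Simulated counts need not spread as these samples do, so how often it would call such a change here was not tested. The targeted gene *Slc16a7*, at a log2 fold change of -1.05, had an adjusted p of 0.370 in edgeR and was not called. The complement genes and lists were chosen with earlier results of these data known. Genes named were *Slc16a7*, the 9 complement genes, the 12 best counted genes of the wider list with those called or at 0, genes overlapping a member and the 3 nearest profiles; genes outside this rule are marked in the text as named after their values were seen. Alternatives were another normalization, no filter, DESeq2, a replicate block, other lengths and each sample left out. A gene of the wider list is not reported here.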

Additional observations from a re-analysis of the deposited data

How the results depend on the processing

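Of the results, those of the 8 complement genes kept their direction under DESeq2 size factors, no filter, DESeq2 and the replicate block, and their median log2 fold change stayed between 0.32 and 0.35. With a sample left out, the median ranged from 0.22 to 0.52 and the genes above 0 from 6 to 8. The signs that reversed were those of *C3ar1* without MCT2 CO replicate 3 (-0.033) or MCT2 KO replicate 1 (-0.19, the other leave-outs reaching 0.28) and of *C1qc* without MCT2 KO replicate 1 (-0.017). Calls depended on the test, and the cause was not tested: DESeq2 called 79 genes after the filter and 83 without it, including 1 complement gene each time (*C1rl*), and edgeR without the filter called 2. With a sample left out, edgeR called 0 to 2 genes, the 2 without MCT2 KO replicate 2, and 0 complement genes. For *Slc16a7*, edgeR gave a log2 fold change of -1.05 at an adjusted p of 0.370 and did not call it. DESeq2 passed the thresholds for this gene with log2 fold changes of -1.05 and -1.04 (adjusted p = 0.00953 and 0.00908). With a sample left out edgeR gave -1.30 to -0.85. Shares of C1q reads per kb of exonic length were 42.6% for *C1qa*, 38.1% for *C1qb* and 19.3% for *C1qc*, against 36.0%, 33.7% and 30.3% of raw counts; with a sample left out they stayed within 35.8% to 36.2%, 33.6% to 33.8% and 30.1% to 30.6%. By span length 4 of the 8 genes kept their rank, and 8 with any sample left out.

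No pairing by replicate number was seen. Deviations of same-numbered samples over the 500 most variable genes correlated at 0.249, -0.335 and -0.254, and those of differently numbered samples at -0.203 to 0.4. With 3 samples per group these values cannot exclude a pairing. A replicate block gave 0 calls, a median of 0.32 and a log2 fold change of 0.87 for *C1rl* (adjusted p = 0.368 in edgeR). Below a few CPM, as in *Cfd* or *Vsig4*, depth limits what can be seen.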
